A study of Mus musculus with 9 samples.

Results

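The genes described here are those of cholesterol synthesis and of its control by the transcription factor SREBP2, followed in mouse liver after treatment with an antisense oligonucleotide (ASO) against apoC-III. The members were taken by gene symbol from a list of 29 enzymes, regulators and carriers, and all 29 were found among the 51912 genes listed. The cells of the liver build cholesterol from acetyl units through mevalonate, farnesyl diphosphate, squalene and lanosterol, each step having its own enzyme. SREBP2 is made as a membrane protein of the endoplasmic reticulum, where Scap escorts it and the Insig proteins hold it back when sterols are plentiful; when sterols are scarce it travels to the Golgi, is cut by a pair of proteases and turns on the genes of the pathway. The liver is a main site of cholesterol synthesis, and these genes are known for moving together when sterol supply changes.

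Livers of 9 fasted mice were profiled by RNA sequencing. All 9 mice were Apoe-/- Ndst1 f/f Alb-Cre+ on a C57Bl/6 background. They lacked apoE, the ligand through which the liver takes up remnant lipoproteins, and Alb-Cre removed the heparan sulfate enzyme Ndst1 in hepatocytes, so that both groups carried the same impaired clearance and no animal with intact clearance was among the samples. The apoC-III ASO was given to 5 mice and the control ASO to 4, both at 50 mg/kg each week for 8 weeks by intraperitoneal injection. ApoC-III is a small apolipoprotein that slows the removal of triglyceride-rich lipoproteins. Age and sex are not given beside the sequencing, and neither is the diet of these mice. Nothing in the labels says more of how the livers relate to each other than that each is a separate sample.

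The deposited values are TPM (length-corrected transcript abundances that sum to 1000000 in each liver), from which sequencing depth cannot be read. Nuclear protein-coding genes held 1.94 to 8.64% of the TPM of a liver, and 10 of the 29 members had a mean under 1 TPM. Values below are therefore rescaled TPM, that is, the TPM of nuclear protein-coding genes rescaled to 1000000 in each liver and divided by a median-of-ratios factor. They remain corrected for transcript length, so levels of different genes can be set side by side. Control ASO replicate 4 stood apart, with the lowest protein-coding share, a factor of 0.497 against 0.930 to 1.44 in the other 8 livers, and the fewest genes above 0 (17992, against 18344 to 20928). Apoc3, the target, lay at 450 ± 111 rescaled TPM (SD, n = 5) under apoC-III ASO and at 3575 ± 491 (SD, n = 4) under control ASO, in groups that did not overlap. Its log2 fold change was -3.01 (SE 0.23, limma adjusted p = 3.84e-04). Apoe and Ndst1, altered in all 9 mice, were listed at 23.2 to 66.3 and at 4.80 to 11.6, gene totals that do not show whether the deleted part was read. Albumin, the defining hepatocyte product, stood at 15295 to 39673 rescaled TPM in the 9 livers.

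Promoter sequences of 4 members are shown first, since SREBP2 acts through short motifs there: the member with the lowest unadjusted p (Msmo1), the member with the widest scatter between livers (Idi1), the enzyme that opens the mevalonate route (Hmgcs1) and the gene of the factor itself (Srebf2). Each is the 180 bases before the RefSeq start in the GRCm38.p6 build, 5′ to 3′ along the gene, with capitals marking an SRE-like motif (TCACNCCA), a CCAAT box (CCAAT) or a GC box (GGGCGG) on either strand. The Msmo1 window is chr8:64733579-64733758 (minus strand), that of Idi1 chr13:8885426-8885605 (plus), that of Hmgcs1 chr13:119690171-119690350 (plus) and that of Srebf2 chr15:82147089-82147268 (plus).
Msmo1: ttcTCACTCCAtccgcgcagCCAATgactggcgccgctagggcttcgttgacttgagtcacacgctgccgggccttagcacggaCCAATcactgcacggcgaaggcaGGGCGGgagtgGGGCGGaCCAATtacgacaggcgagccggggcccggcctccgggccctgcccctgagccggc
Idi1: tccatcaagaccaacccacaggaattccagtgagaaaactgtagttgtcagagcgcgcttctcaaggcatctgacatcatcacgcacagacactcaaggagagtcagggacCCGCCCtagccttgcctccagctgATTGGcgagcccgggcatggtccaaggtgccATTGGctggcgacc
Hmgcs1: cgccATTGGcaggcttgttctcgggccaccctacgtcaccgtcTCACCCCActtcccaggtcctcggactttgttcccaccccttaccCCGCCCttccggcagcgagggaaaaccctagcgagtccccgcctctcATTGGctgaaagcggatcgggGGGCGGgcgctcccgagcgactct
Srebf2: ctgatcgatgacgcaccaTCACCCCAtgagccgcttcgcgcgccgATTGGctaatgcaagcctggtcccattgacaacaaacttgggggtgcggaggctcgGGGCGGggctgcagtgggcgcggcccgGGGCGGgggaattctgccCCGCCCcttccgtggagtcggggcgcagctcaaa
The SRE-like motif lay 177 bases before the start in Msmo1, 137 in Hmgcs1 and 162 in Srebf2. It was not spelled in the 250 bases before the Idi1 start.

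RefSeq promoter entries matched 24 of the 29 members through 32 start sites, and Sqle, Fdps, Fdft1, Erlin2 and Stard4 had no entry. In the 250 bases before the start, both strands searched, TCACNCCA was found in 3 of these 32 windows (9.38%), against 3.67% of all 32851 windows of that length. CCAAT was found in 22 of 32 (68.8%), against 33.8% of all windows. GGGCGG was found in 25 of 32 (78.1%), against 32.7%. The CCAAT and GC boxes, found in 33.8% and 32.7% of all windows, are not particular to SREBP2 targets. All windows were taken, not matched for base composition or for expression in liver. Whether the higher shares set the members apart from other expressed genes was not tested. The 3 motifs do not overlap one another in the windows printed above. A match describes letters and not binding, and start sites of 1 gene share sequence.

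In the control ASO livers the 4 members with the highest means were enzymes of the later steps, though others of those steps, Hsd17b7 (17.7) and Nsdhl (15.2), ranked low. Dhcr7, a reductase at the end of the pathway, averaged 218 ± 109 rescaled TPM (SD, n = 4), Sc5d 178 ± 61.5, Ebp 152 ± 34.9 and Msmo1 142 ± 35.6. Fdps came next at 80.8 ± 8.81 and Cyp51 at 79.7 ± 18.3. Idi1 (65.5) and Acat2 (51.0) ranked lower. With the near-identical copies described below, which may share their reads, their means were 164 and 226. Their place in the order thus depends on whether the copies are counted. The regulators Srebf2 (6.99 ± 1.66) and Mbtps2 (7.31 ± 2.90) were near the bottom of the order, and Mvd was last at 2.96 ± 2.30, with 1 control liver, replicate 4, listed at 0. Most of this order is loose, because 27 of its 28 pairs of neighbours overlapped between livers. The exception was Msmo1 above Fdps, where the lowest Msmo1 value (101) exceeded the highest Fdps value (92.2), although Insig2 (up to 149) and Idi1 (up to 102.8), further down the order, reached into the Msmo1 range.

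**Figure D1:**
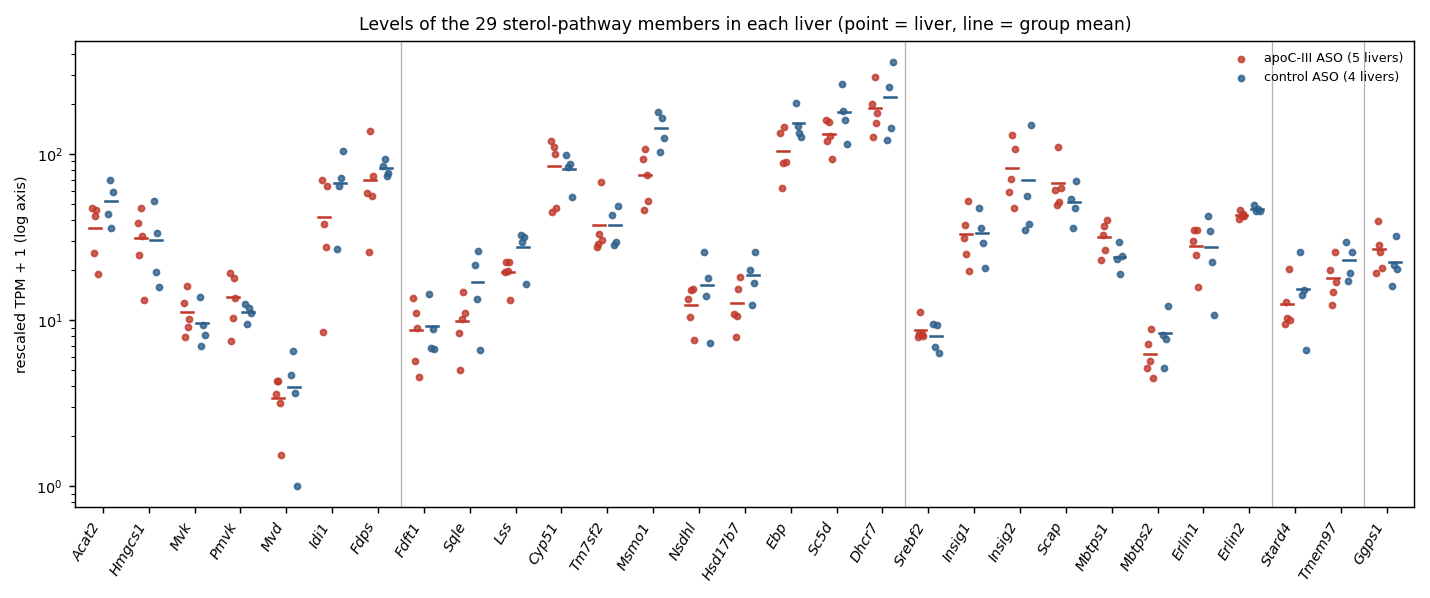
Levels of the 29 members in each liver as rescaled TPM + 1 (log axis), ordered by role, with a point for each liver and a line for each group mean (red, apoC-III ASO, 5 livers; blue, control ASO, 4 livers). The 2 groups overlap in every member, and Mvd is the member with a liver at 0.

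The comparison of apoC-III ASO with control ASO asks whether silencing apoC-III moved the sterol program of the liver. None of the 29 members passed the test (more than 1.5-fold apart with a limma adjusted p under 0.05), against 2 of 11967 genes tested (0.0167%), Apoc3 and Anpep, both lower. Adjusted p was above 0.84 for all 29. The paper's test, made on read counts not used here, called more genes than this in each direction at the same thresholds. Fold changes of the members carried SEs of 0.17 (Erlin2) to 0.58 (Idi1) on the log2 scale. Msmo1, at -0.97 (SE 0.29), was not called, so the absence of calls does not exclude changes of that size. At an unadjusted p under 0.05, limma gave 1 member (Msmo1), against 667 of the 11967 genes (5.57%), and an exact permutation test gave 2 (Msmo1 and Erlin2), against 622 of them (5.2%). No member had groups that did not overlap, against 1.84% of all genes. By these counts the members stood near the background. Of the 29, 20 had a fitted value below 0 and 9 above, with a median log2 fold change of -0.12, against 50.1% below and a median of -0.00 over all genes. In whole tissue, fewer cells of a type and less RNA per cell cannot be told apart.

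In rescaled TPM, the members below 0 were not spread evenly over the pathway. All 11 enzymes from squalene to cholesterol had a fitted log2 fold change below 0, from -0.97 to -0.03, with a median of -0.42. Of the 7 enzymes from acetyl units to farnesyl diphosphate, 4 lay below 0 and 3 above, with a median of -0.03. Of the 8 genes of SREBP2 processing, 3 lay below and 5 above, with a median of 0.14. These counts are a description, because genes of one liver are not replicates of each other. The contrast between the early and the late enzymes also turned on the scaling. Relative to the median of all genes, their medians were -0.28 and -0.28 in deposited TPM, with 4 and 7 enzymes tested. With median-of-ratios scaling of all genes they were -0.30 and -0.22, with 4 and 6 tested. In rescaled TPM the contrast turned on single livers as well. Without control ASO replicate 4 the early and late medians, relative to all genes, were -0.45 and -0.61. In that fit 5 of the 7 early enzymes lay below 0. Without apoC-III ASO replicate 5 these medians were 0.19 and -0.30.

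**Figure D2:**
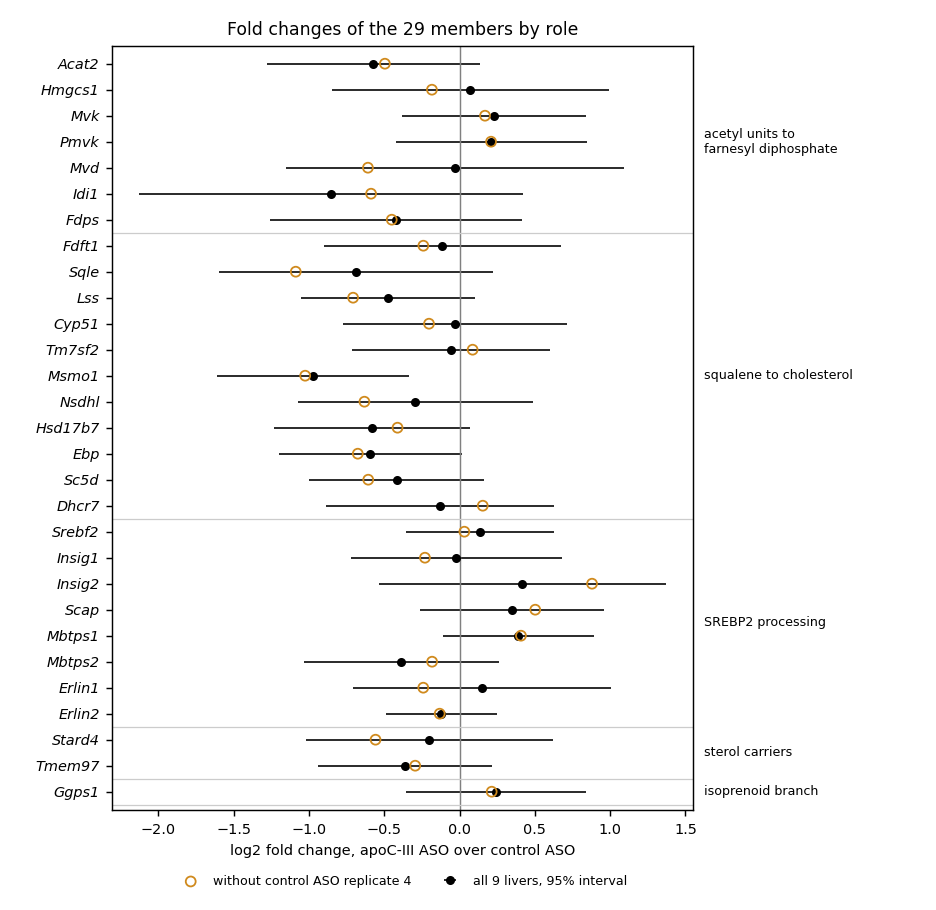
Fitted log2 fold change of each member, apoC-III ASO over control ASO, grouped by role (filled points with 95% intervals from limma, 9 livers; open circles, the fit without control ASO replicate 4). All 11 filled points from squalene to cholesterol lie left of 0, and the interval of Msmo1 (-1.61 to -0.33) is the one that does not reach 0.

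Hmgcs1 makes the HMG-CoA from which mevalonate comes. In the apoC-III ASO livers, in replicate order, it stood at 37.5, 23.5, 46.1, 30.9 and 12.2 rescaled TPM, and in the control ASO livers at 51.1, 18.5, 32.4 and 14.9. The ranges coincided almost wholly, and the log2 fold change was 0.07 (95% interval -0.85 to 0.99). Upstream of it, Acat2, an acetoacetyl-CoA thiolase, had a log2 fold change of -0.57 (SE 0.32). The kinases Mvk and Pmvk, which phosphorylate mevalonate in turn, lay above 0 at 0.23 and 0.21, and the decarboxylase Mvd lay at -0.03 with an interval from -1.15 to 1.09.

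Idi1 interconverts the pair of five-carbon isoprene units. Its values were 68.3, 7.51, 36.7, 26.5 and 63.3 rescaled TPM under apoC-III ASO. Under control ASO they were 25.7, 62.9, 70.8 and 102.8. ApoC-III ASO replicate 2 was far below the rest and control ASO replicate 4 was the highest, the ranges overlapped, and the log2 fold change of -0.85 carried an SE of 0.58. Fdps, which joins the units into farnesyl diphosphate, had a log2 fold change of -0.42 (SE 0.38), its lowest liver also being apoC-III ASO replicate 2.

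Idi1 has 2 near-identical processed pseudogenes, Gm13502 (identical over 684 bases) and Gm35570 (97.7% identity over 681), and reads from the 3 genes may be divided among them in more than 1 way. Gm13502 was listed at 1.76 to 89.0 rescaled TPM and Gm35570 at 0 to 89.8, so that in several livers a copy exceeded Idi1 itself. The sum of the 3 was 165, 128, 122, 77.6 and 98.2 rescaled TPM in the apoC-III ASO livers. In the control ASO livers it was 198, 171, 179 and 106. The summed values scattered less than Idi1 alone, with a log2 fold change of -0.47 (SE 0.27, limma adjusted p = 0.900), and the ranges still overlapped. Summing the copies was chosen after seeing the data.

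**Figure D3:**
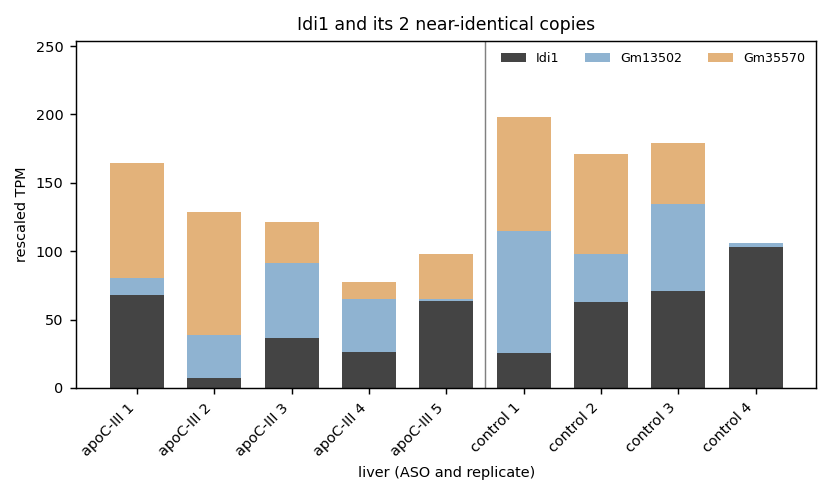
Stacked bars of Idi1 (dark) and its 2 near-identical copies Gm13502 (blue) and Gm35570 (orange) in each liver, in rescaled TPM; a vertical line parts the 5 apoC-III ASO livers from the 4 control ASO livers. The stacks run from 77.6 to 198 rescaled TPM while the share of Idi1 in them differs widely from liver to liver.

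Near-identical copies also touched Acat2, Fdps, Fdft1 and Tmem97. Acat3, a protein-coding gene 97.7% identical to Acat2 over 1477 of the 2250 bases of Acat2, was listed at 95.6 to 329 rescaled TPM. Acat2 was listed at 17.8 to 69.0. The sum of both had a log2 fold change of 0.22 in place of -0.57. Acat3 was the larger part of that sum in every liver, and how reads were divided between the pair was not tested. Fdps and Fdft1 with their copies gave -0.48 and -0.10, close to the values without them. Ggps1 has a copy as well, the processed pseudogene Gm5630 (97.2% identity over 903 bases), which was not used here.

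The squalene branch begins with Fdft1 (squalene synthase), at a log2 fold change of -0.11 (SE 0.36), and Sqle (squalene epoxidase), a rate-limiting step. Sqle stood at 7.39, 3.98, 9.08, 13.6 and 9.99 rescaled TPM under apoC-III ASO. Under control ASO it stood at 20.6, 12.4, 24.9 and 5.61. Control ASO replicates 1 and 3 were above every treated liver, whereas control ASO replicate 4 was below all treated livers but 1. The log2 fold change was -0.69 (SE 0.42, limma adjusted p = 0.900), and without control ASO replicate 4 it was -1.09 (SE 0.36, limma adjusted p = 0.831).

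Lss closes squalene epoxide into lanosterol, and was described after its values were seen. It lay at 18.6, 21.2, 18.7, 21.5 and 12.1 rescaled TPM in the treated livers and at 31.3, 28.5, 30.6 and 15.4 in the controls. The first 3 controls were above all 5 treated livers, and control ASO replicate 4 lay among them. Its log2 fold change was -0.48 (SE 0.26), and -0.71 (SE 0.23, limma adjusted p = 0.813) without that liver.

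Cyp51 removes the 14-alpha-methyl group of lanosterol. It stood at 118, 43.9, 108, 98.7 and 46.1 rescaled TPM under apoC-III ASO. Under control ASO it stood at 97.1, 82.1, 85.7 and 54.0. The treated livers fell into 3 at the top of the range and 2, replicates 2 and 5, at the bottom, and the controls lay between them, at a log2 fold change of -0.03 (SE 0.34). Tm7sf2, a sterol reductase of the following step, had a log2 fold change of -0.05 (SE 0.30).

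Msmo1, the oxidase that starts the removal of the 4-methyl groups of the sterol ring, was the member furthest below 0. Its values under apoC-III ASO were 92.3, 45.2, 106, 73.5 and 51.1 rescaled TPM. Its values under control ASO were 178, 101, 164 and 124. The groups overlapped in a single pair, apoC-III ASO replicate 3 lying above control ASO replicate 2. The means were 73.5 ± 25.9 (SD, n = 5) and 142 ± 35.6 (SD, n = 4). The log2 fold change was -0.97 (SE 0.29, limma unadjusted p = 0.00628, adjusted p = 0.844), and an exact two-sided permutation test on log2 values gave p = 0.0317, where 0.0159 is the smallest p that 5 livers against 4 allow. Msmo1 therefore did not pass once all genes tested were taken into account. Its value also turned on the scaling, being -0.59 in deposited TPM (limma unadjusted p = 0.255) and -0.50 without the median-of-ratios factor (limma unadjusted p = 0.209). On those scales the median of all genes was itself 0.11 and 0.41, against -0.00 on the main scale.

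The remaining enzymes that follow Msmo1 lay below 0 with wide errors. Nsdhl and Hsd17b7, which complete the demethylation, had log2 fold changes of -0.29 (SE 0.36) and -0.58 (SE 0.30). Ebp, the sterol isomerase, averaged 103 ± 34.7 rescaled TPM (SD, n = 5) in treated livers and 152 ± 34.9 (SD, n = 4) in controls. This amounted to -0.59 on the log2 scale (SE 0.28, limma adjusted p = 0.877). Sc5d, the desaturase, had -0.42 (SE 0.27), and Dhcr7 had -0.13 (SE 0.35). The values of Ebp, Sc5d, Nsdhl and Hsd17b7 were picked out after they were seen.

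The low values came from particular livers. Among the 11 enzymes from squalene to cholesterol, 9 had their lowest liver in the apoC-III ASO group, 5 of them in replicate 2 and 3 in replicate 5, and 9 had their highest liver in the control ASO group, 6 of them in replicate 1. Summed over the 11, the treated livers gave 787, 467, 841, 735 and 533 rescaled TPM. The controls gave 1010, 860, 807 and 878. The sums of the groups overlapped, since apoC-III ASO replicate 3 exceeded control ASO replicate 3. In the control ASO livers the 11-enzyme sum spread little (SD 86.2), and in the treated livers more (SD 164). The difference in spread was not tested. Single enzymes were not as steady in the controls, where Dhcr7 alone had an SD of 109, and opposite deviations cancel in the sum. Among the controls, replicate 1 was lowest in Dhcr7 (120) and highest in Sc5d (261). Replicate 4 was the reverse (356 and 114).

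**Figure D4:**
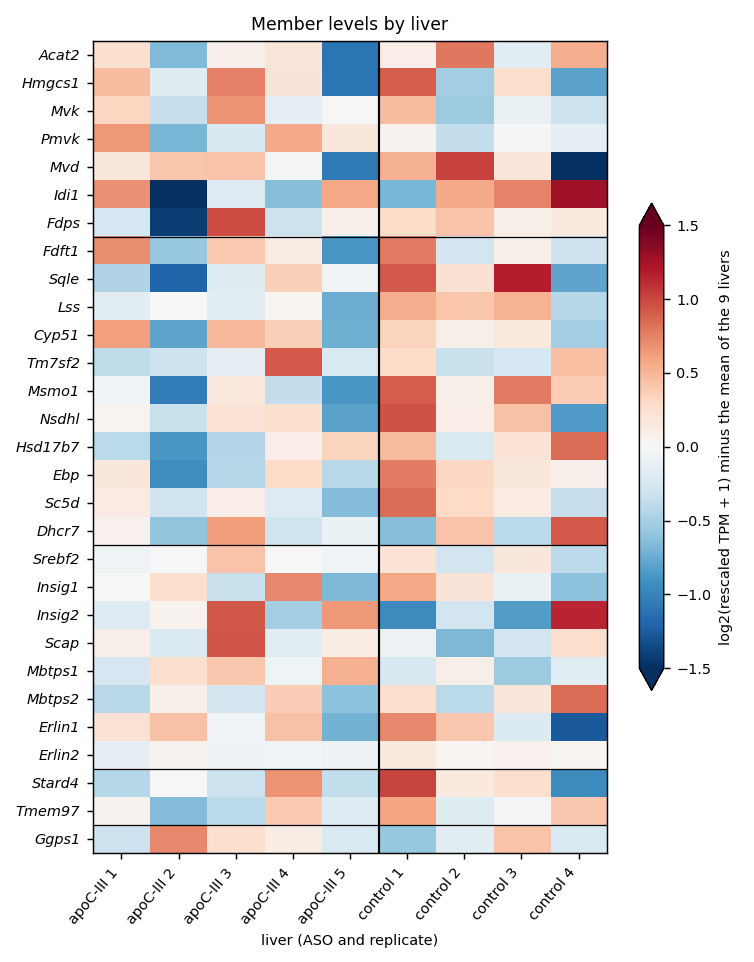
Heat map of log2(value + 1) minus the mean of the 9 livers for each member (rows, by role) and liver (columns; apoC-III ASO left of the line, control ASO right of it), colours being cut at 1.5 in either direction. ApoC-III ASO replicate 2 holds 5 and replicate 5 holds 3 of the lowest values of the 11 enzymes from squalene to cholesterol, and control ASO replicate 1 holds 6 of the highest.

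Leaving out single livers moved how many of these enzymes lay below 0. The number was 8 of 11 without apoC-III ASO replicate 2, without apoC-III ASO replicate 5 or without control ASO replicate 1. Without control ASO replicate 4 it was 9 of 11, Tm7sf2 (0.09) and Dhcr7 (0.15) lying above 0, and 6 members passed an unadjusted p under 0.05, against 5.36% of the 12069 genes then tested. These were Msmo1, Lss, Sqle, Sc5d and Ebp, all below 0, and Insig2, above 0. None of the 6 passed the adjusted threshold in limma (adjusted p of 0.805 to 0.915). The number below 0 also turned on the scaling. In deposited TPM 4 of the 7 tested lay below 0, and without the median-of-ratios factor 5 of 11 did, scales on which the median of all genes was itself 0.11 and 0.41. Relative to the median of all genes, the median of this branch was below 0 in all 20 fits, from -0.61 to -0.22. Of the 11 enzymes, 6 were tested with median-of-ratios scaling of all genes. The fits share most of their livers, so they are not independent of each other. Other lists described below also kept their side in all 20 fits. Partners of sterol synthesis lay below 0 (-0.40 to -0.11), and genes of sterol transport and esterification above 0 (0.05 to 0.25).

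**Figure D5:**
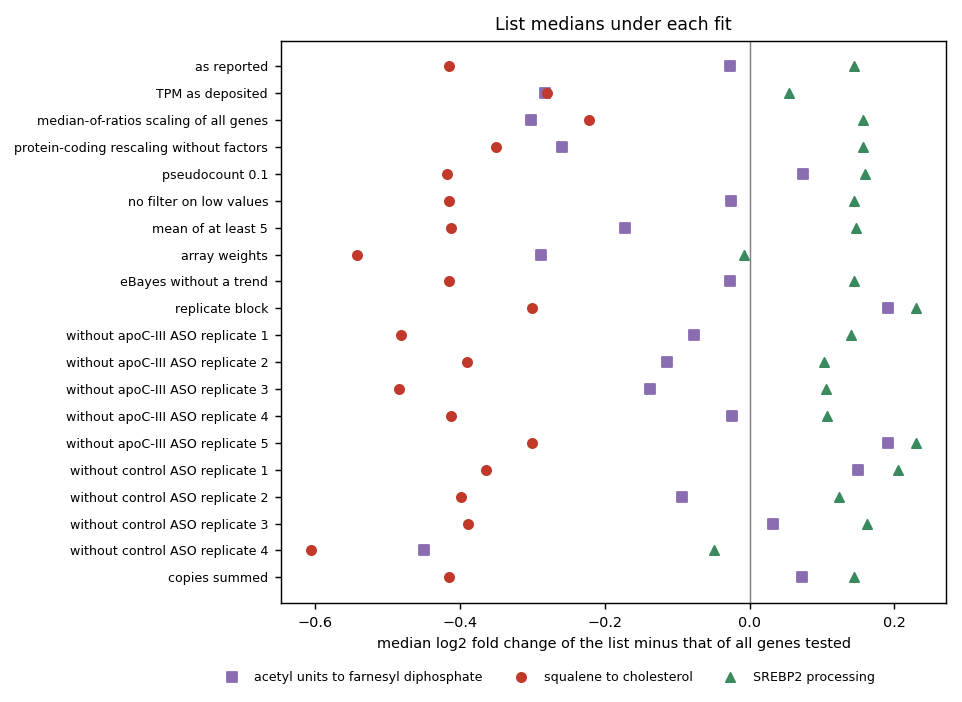
Median log2 fold change of 3 groups of members minus that of all genes tested, under each of the 20 fits (squares, acetyl units to farnesyl diphosphate; circles, squalene to cholesterol; triangles, SREBP2 processing). The circles lie between -0.61 and -0.22 in every fit, the squares fall on both sides of 0, and the triangles lie above 0 except with array weights and without control ASO replicate 4.

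Srebf2, the gene of SREBP2, was low in all livers. It stood at 6.91, 7.22, 10.2, 7.24 and 7.06 rescaled TPM under apoC-III ASO and at 8.53, 5.84, 8.31 and 5.29 under control ASO. Apart from apoC-III ASO replicate 3 the treated livers lay within the control range, and the log2 fold change was 0.14 (95% interval -0.35 to 0.63). Thus the messenger of the factor itself differed by less than the spread between livers.

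Scap, the sterol-sensing escort of SREBP2, stood at 59.8, 48.2, 109, 50.4 and 61.0 rescaled TPM in the treated livers. In the controls it stood at 52.9, 34.9, 46.4 and 67.7. A single treated liver, replicate 3, was above every control, and the log2 fold change was 0.35 (SE 0.28). Mbtps1, the protease that makes the first cut, stood at 22.1, 31.5, 35.6, 25.4 and 39.0 rescaled TPM, against 22.4, 28.4, 17.9 and 23.4, a log2 fold change of 0.39 (SE 0.23). Here 3 of the 5 treated livers were above all controls. Mbtps2, the protease of the second cut, had the opposite sign at -0.39 (SE 0.30).

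Insig1 and Insig2 retain the Scap and SREBP2 complex in the endoplasmic reticulum, Insig1 being itself a target of SREBP2. Insig1 stood at 30.3, 36.3, 24.0, 51.0 and 18.7 rescaled TPM under apoC-III ASO and at 46.3, 34.9, 28.2 and 19.5 under control ASO. The ranges nearly coincided, and the log2 fold change was -0.02 (95% interval -0.72 to 0.68). Insig2 stood at 58.2, 69.2, 128, 46.5 and 106 rescaled TPM, against 34.0, 54.9, 36.8 and 149. The highest value of all was control ASO replicate 4, while the other 3 controls lay below 4 of the 5 treated livers. Its log2 fold change of 0.42 (SE 0.44) thus became 0.88 (SE 0.34, limma adjusted p = 0.867) without that liver.

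Erlin1 and Erlin2, a pair of endoplasmic reticulum proteins that restrain SREBP activation, had log2 fold changes of 0.15 (SE 0.39) and -0.12 (SE 0.17). Erlin2 was the steadiest member, at 39.6, 45.1, 41.2, 42.3 and 41.4 rescaled TPM under apoC-III ASO and at 48.3, 44.4, 45.5 and 44.3 under control ASO. Replicate 2 was the one treated liver inside the control range. Its mean was 8.17% below that of the controls. The exact two-sided permutation test gave p = 0.0476 without adjustment, and limma, which draws each variance towards that of genes of similar level, gave an adjusted p of 0.966.

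The sterol carriers were both below 0. Stard4, which moves cholesterol between membranes, had a log2 fold change of -0.20 (SE 0.37), and Tmem97, the sigma-2 receptor, had -0.36 (SE 0.26). With its processed pseudogene Gm5809 added, Tmem97 reached -0.75 (SE 0.26, limma adjusted p = 0.856). Gm5809 was low, at most 0.67 in deposited TPM. It was listed at 0 in apoC-III ASO replicates 3, 4 and 5 and was highest in control ASO replicate 4 (24.0 rescaled TPM). In that control liver the sum was 48.7, against 24.7 for Tmem97 alone. Ggps1, which leads farnesyl diphosphate away to geranylgeranyl diphosphate, had 0.24 (SE 0.27).

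Of 48 further genes of the pathway tested, in 4 lists, none passed the adjusted threshold and none reached an unadjusted p under 0.05 in limma, 25 lying above 0 and 23 below. Of the 8 partners of sterol synthesis, genes that supply acetyl-CoA or electrons or reduce the sterol ring, 7 lay below 0, with a median of -0.29. Of 12 genes of isoprenoid use 6 lay below, with a median of -0.03. The 16 genes of sterol-regulated degradation and of exit from the endoplasmic reticulum had a median of 0.07, and the 12 genes of sterol transport and esterification one of 0.10, 8 of them above 0. The smallest p was that of Gramd1a, a carrier of cholesterol from the plasma membrane, at 0.62 (SE 0.29, limma adjusted p = 0.877), which was picked out for that p.

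Markers of other liver cells were compared beside the members. The 5 stellate cell markers all lay below 0, with a median of -0.57, Dcn and Lrat reaching an unadjusted p under 0.05 in limma and none passing the adjusted threshold. Their sum was 98.6 to 125 rescaled TPM in the treated livers and 119 to 229 in the controls, highest in control ASO replicate 4, so that the stellate sum was lower on average in the treated livers, as was the sum of the 11 enzymes. Its part in the values of the members was not tested. The 4 hepatocyte markers listed (3 below 0), the 5 of macrophages and leukocytes (3 below 0), the 5 of sinusoidal endothelium (2 below 0) and the 3 of cholangiocytes that could be tested (2 below 0) held no gene at an unadjusted p under 0.05. The hepatocyte sum was 21196 to 49176 rescaled TPM in the treated livers and 27448 to 35441 in the controls, and Krt19 and Epcam, markers of cholangiocytes, were listed at 0 in 1 liver each.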

How the data were processed

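RNA sequencing of 9 livers (ribosomal RNA depleted, stranded, single-end) was analysed from the TPM table that the authors deposited, 1 column per liver and no pooling. The submitters' processing notes name kallisto 0.43.1 and GRCm38. The published test was made with STAR, featureCounts and DESeq2, on counts not used here, so a test for normalized values was used and depth is unknown. Nuclear protein-coding genes of GENCODE M21 (51719 of 51912 identifiers matched) were rescaled to 1000000 per liver and divided by median-of-ratios factors (rescaled TPM). Genes with a mean of at least 1 were fitted on log2(value + 1) with limma 3.58.1 (lmFit, eBayes with trend) in R 4.3.3, all 9 livers, Benjamini-Hochberg adjustment over all 11967 genes. Fold changes are on that scale, which understates low genes. A call needed adjusted p under 0.05 and over 1.5-fold. Single values were also compared by exact two-sided permutation (Python 3.11.15). Replicates are samples the labels list separately, so p-values cover the spread between these samples. Near-identical copies were sought with blastn (at least 95% identity over 300 bases). The fit was tested on simulated data. Alternatives were other scalings, pseudocount 0.1, no filter or a mean of at least 5, array weights, eBayes without a trend, a replicate block, each liver left out and summed copies. Per-liver values are given for members at an unadjusted p under 0.05, with groups apart, with the 3 highest or lowest fold changes, and for 8 well-known ones (Srebf2, Scap, Insig1, Insig2, Hmgcs1, Idi1, Sqle, Cyp51). Members and lists were chosen with earlier results of these data known. Some genes of the pathway are not analysed here.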

Additional observations from a re-analysis of the deposited data

Results flagged for a closer look

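In 3 of the 60 groups of livers examined (the 29 members and Apoc3, in 2 groups each), a single liver lay far from the others by Dixon's 95% limit, and chance gives about 1 in 20. Tm7sf2 stood at 66.3 rescaled TPM in apoC-III ASO replicate 4, the next liver of the group being at 31.7. Srebf2 stood at 10.2 rescaled TPM in apoC-III ASO replicate 3, the next being at 7.24. Scap stood at 109 rescaled TPM in the same liver, the next being at 61.0. All 3 were the highest of their group.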

How the results depend on the processing

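No member was called in any of the 19 alternative fits, the lowest adjusted p of a member being 0.451. Of the 29 members, 13 kept their sign and 16 did not. The cause of each change below was not tested. Calls over all genes were 0 higher and 2 lower, against 5 and 6 in deposited TPM, 1 and 1 with median-of-ratios scaling of all genes, and 1 lower without factors, without a filter or without a trend; leaving out livers gave 0 to 1 higher and 1 to 3 lower. Apoc3 missed the threshold in deposited TPM alone (log2 fold change -2.62, limma adjusted p = 0.104). Members above 0 were 9, against 22 without factors, where the median of members was 0.29 and that of all genes 0.41. In deposited TPM 11 of the 19 tested lay above 0, with a median of 0.04 for members and 0.11 for all genes. With median-of-ratios scaling of all genes 6 of 17 did, with a median of -0.02 for members and -0.02 for all genes. Leaving out single livers gave 9 to 15 members above 0, with 14 without apoC-III ASO replicate 5 and 15 without control ASO replicate 1, and a median of -0.24 to 0.03. Without factors, Mvd (0.15), Fdps (0.047), Fdft1 (0.29), Cyp51 (0.44), Tm7sf2 (0.41), Nsdhl (0.12), Sc5d (0.058), Dhcr7 (0.35), Insig1 (0.43), Mbtps2 (0.033), Stard4 (0.21), Tmem97 (0.090) and Erlin2 (0.35) changed sign. So did Cyp51 (0.12), Tm7sf2 (0.12), Dhcr7 (0.17), Insig1 (0.033) and Erlin2 (0.037) in deposited TPM, which kept 19 members past the filter. Array weights turned Hmgcs1 (-0.10), Dhcr7 (0.15) and Erlin1 (-0.072), a pseudocount of 0.1 turned Mvd (0.47), and summed copies turned Acat2 (0.22). Leaving out livers, the log2 fold change ran from -0.18 to 0.39 in Hmgcs1, -0.61 to 0.30 in Mvd, -0.30 to 0.13 in Fdft1, -0.20 to 0.16 in Cyp51, -0.29 to 0.087 in Tm7sf2, -0.37 to 0.15 in Dhcr7, -0.23 to 0.17 in Insig1, -0.56 to 0.10 in Stard4 and -0.24 to 0.42 in Erlin1. At an unadjusted p under 0.05 there were 5 members with array weights, against 895 of 11967 genes. There were 6 without control ASO replicate 4, the same 5 and Sc5d, against 647 of 12069 genes. Without factors there were 3 (Insig2, Mbtps1 and Scap, all above 0), against 1328 of 12051 genes, 1287 of them above 0. In deposited TPM there were 0, against 99 of 4936 genes. Msmo1 passed neither without factors nor in deposited TPM.

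The labels number the livers in both groups, and livers of the same number correlated at 0.07, 0.12, 0.03 and 0.19 in their deviations from the group means, with 2 of 4 control livers closest to their own number, so the numbers were not taken as pairs. With the replicate block, which drops apoC-III ASO replicate 5 from the contrast, 1 gene was called higher and 2 lower, and no member was called. At an unadjusted p under 0.05 there were 2 members, against 934 of 11967 genes. Mvd (0.23), Fdft1 (0.093), Cyp51 (0.15) and Insig1 (0.14) changed sign.

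Deposited TPM does not keep depth, so how far depth limits the low members (10 under a mean of 1 TPM) is unknown.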
